A study of Mus musculus with 14 samples.

Results

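The Lin28a-RIP peaks of genes in which no Igf2bp3-RIP peak was listed are described here. A gene was taken when its identifier had at least 1 row in the Lin28a-RIP peak table and none in the Igf2bp3-RIP peak table, and all of its Lin28a-RIP peaks were then included. This gave 1931 of 21616 Lin28a-RIP peaks (8.93%), in 755 of 3493 genes with a Lin28a-RIP peak. The remaining 2738 genes, with 19685 Lin28a-RIP peaks, had peaks of both proteins and serve as the comparison. Of the 755 genes, 687 were protein-coding, 38 were microRNA genes, 21 were long noncoding RNA genes, 5 were snoRNA genes and 4 were transcribed pseudogenes.

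The series holds 14 libraries from cultured mouse muscle stem cells (MuSCs), with 2 libraries in each group. RNA-seq of the input and RNA immunoprecipitation (RIP) with antibodies against m6A and Igf2bp3 were made from both Control and Lin28a positive (Lin28a+) MuSCs, while Lin28a-RIP was made from Lin28a+ MuSCs alone. The study states that Lin28a+ MuSCs were sorted by flow cytometry from the muscle of Lin28a-CreERT2; LSL-tdTomato mice. In these mice a Lin28a-driven, tamoxifen-inducible Cre switches on a red reporter. The study's text gives no separate source for the Control cells. Cells were grown on Matrigel in DMEM with 10% FBS, with no further agent named for any group. The study's methods speak of biological replicates in general, and more of them than the 2 libraries per group analysed here, but the sources do not tie these libraries to separate mice or cultures. Every p-value therefore measures the spread between these libraries, which may be technical.

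Lin28a is an RNA-binding protein with a cold-shock domain and a pair of zinc knuckles. It is best known for holding back the maturation of let-7 microRNAs, whose precursors it grips at a GGAG motif in the loop region, and it also binds many messenger RNAs. Igf2bp3 is an RNA-binding protein that can read N6-methyladenosine (m6A), the commonest internal mark of messenger RNA, and MuSCs are the quiescent stem cells that renew skeletal muscle fibres.

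Because GGAG is the element by which Lin28a grips let-7 precursors, it was searched in the RefSeq hairpins that a Lin28a-RIP peak of these genes overlapped. There were 13 such hairpins with a sequence, besides Mir6971, which has none in the table used here. GGAG was present on the strand of the hairpin in 6 of the 13 (46.15%). The search covered the whole hairpin, and whether a motif lay in the loop was not determined. In 4 of the 6 the motif lay within the peak, and in the other two, Mir6916 and Gm27740, the peak reached only part of the hairpin and did not cover a whole GGAG. The motif was present in 447 of 1005 mouse hairpins (44.48%), in 20 of 42 hairpins under any Lin28a-RIP peak (47.62%) and in 9 of 11 let-7 hairpins (81.82%). No let-7 gene had a Lin28a-RIP peak in the table. The hairpin under the peak with the most reads, Mir7090, and the 4 hairpins with GGAG within the peak are shown as RNA, 5′ to 3′ (RefSeq, GRCm38.p6), with GGAG in capitals.
Mir7090: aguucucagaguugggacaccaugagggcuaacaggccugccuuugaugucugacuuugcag
Mir6923: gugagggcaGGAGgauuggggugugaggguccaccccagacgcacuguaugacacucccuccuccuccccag
Mir3062: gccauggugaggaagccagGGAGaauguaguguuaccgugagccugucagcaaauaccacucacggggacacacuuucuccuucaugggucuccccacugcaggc
Mir7005: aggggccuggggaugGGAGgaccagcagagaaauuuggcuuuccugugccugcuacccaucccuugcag
Mir877: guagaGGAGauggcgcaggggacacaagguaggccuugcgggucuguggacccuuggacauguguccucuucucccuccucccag

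Each of these hairpins lay at a protein-coding gene. Mir7090 (chr9:120955086-120955147, + strand) was in Ctnnb1, which encodes beta-catenin, and the peak over it held 17166 and 16162 counts in the Lin28a-RIP libraries. By position this peak shared bases with an Igf2bp3-RIP peak listed under Ctnnb1, so it counts among these peaks by the listed name alone. Mir6923 (chr11:67099804-67099875, + strand) was in Myh3, the embryonic myosin heavy chain gene, under a peak of 5895 and 4945 counts. Mir3062 (chr11:68990574-68990678, - strand) was in Pfas, a gene of purine synthesis, under 2105 and 1836 counts. Mir7005 (chr2:180179755-180179823, - strand) was in Lama5, a laminin chain gene, under 1682 and 1567 counts, and Mir877 (chr17:35960730-35960814, - strand) was in Abcf1, under 695 and 655 counts. All of these peaks were wider than a hairpin, so reads from the hairpin and from the surrounding transcript cannot be told apart.

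The Lin28a-RIP libraries held 36610494 and 33908110 counts in the listed peaks, and those of the 1931 peaks made up 4.96% and 4.86% of them (95% Wilson intervals 4.948 to 4.962% and 4.851 to 4.866%, which cover counting error only). These peaks covered 6.92% of the bases under all Lin28a-RIP peaks. The median peak held 12.7 CPM (counts scaled to the library total; quartiles 7.20 and 24.5), against 21.6 in genes with peaks of both proteins, and its density was 155 counts per 100 bp against 230. It was also somewhat narrower, at 251 bp against 287 bp. The lowest count of any of the 1931 peaks in a library was 19, and 86 peaks had under 100 counts. The replicates lay within 1.5 times of each other in 1880 peaks (97.4%), against 99.6% of the peaks of genes with both. With a single group of 2 libraries, these values are descriptions without a test.

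Genes without Igf2bp3-RIP peaks carried few Lin28a-RIP peaks. The median was 1 peak per gene against 4 in genes with both proteins, the mean was 2.56 against 7.19, and the highest number was 22 against 86. A single peak was listed for 394 genes (52.2%), against 573 (20.9%) of the genes with both. At least 5 peaks were listed for 99 genes (13.1%) against 47.6%, and at least 10 for 31 genes (4.11%) against 23.6%. The genes were also shorter, with a median RefSeq span of 24.0 kb against 43.7 kb, and how far length accounts for the number of peaks was not tested.

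**Figure D1:**
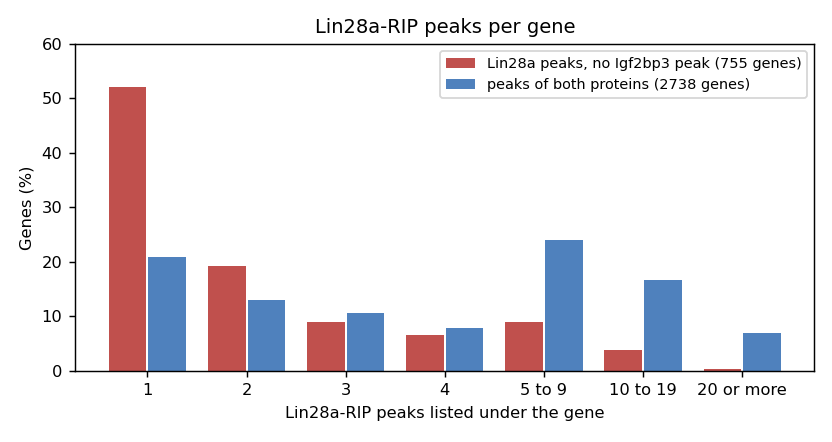
Share of genes (y axis, percent) by the number of Lin28a-RIP peaks listed under the gene (x axis), for the 755 genes without an Igf2bp3-RIP peak and the 2738 genes with peaks of both proteins. Bars are counts of genes with no error. A single peak was listed for 52.2% of the former and 20.9% of the latter.

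The most reads were in Eef2 and Pkm. Eef2, the elongation factor that moves the ribosome along the messenger RNA, held 3096 and 2914 CPM in 4 peaks, and Pkm, the pyruvate kinase of the last step of glycolysis, held 2810 and 2664 CPM in 6 peaks. Hyou1, a chaperone of the endoplasmic reticulum, held 1095 and 1033 CPM in 7 peaks. Psmd2, a subunit of the regulatory particle of the proteasome, held 916 and 876 CPM in 10 peaks, and Hspa8, a constitutive cytosolic chaperone, held 888 and 845 CPM in 2 peaks. Sdha, the flavoprotein subunit of succinate dehydrogenase, held 750 and 745 CPM in 13 peaks. For each of these 6 genes all listed peaks lay within the gene, and the replicates differed little compared with the distance from Pkm to Hyou1. Per length, Pkm (6751 counts per 100 bp of peak), Eef2 (6072) and Hspa8 (5319) stood well above Psmd2 (859), Sdha (728) and Hyou1 (538).

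**Figure D2:**
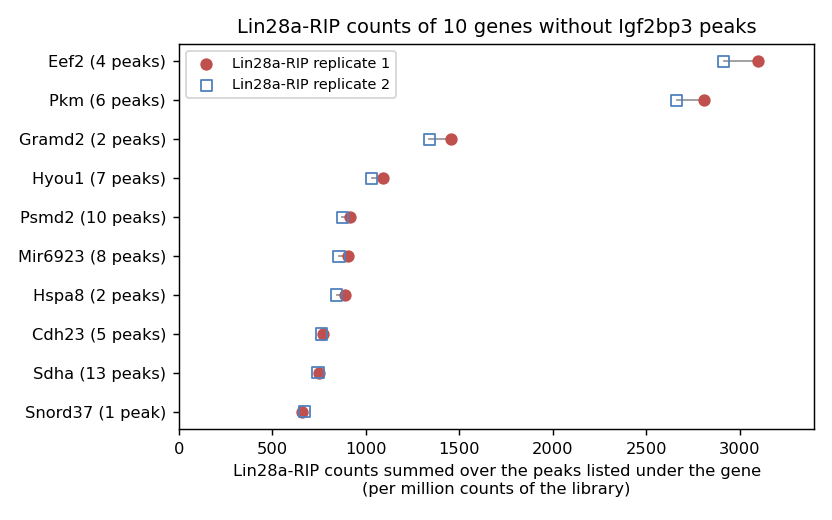
Lin28a-RIP counts summed over the peaks of each gene (x axis, CPM) for the 10 genes without Igf2bp3-RIP peaks that had the most; filled circles are replicate 1 and open squares replicate 2. Eef2 and Pkm stood apart, between 2664 and 3096 in either library, and the other 8 genes lay at 1455 or lower.

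The densest single peaks were in Pkm and Eef2. The first was in Pkm at chr9:59670271-59670546 (mm10), with 26280 and 21665 counts, or 8686 counts per 100 bp. The second was in Eef2 at chr10:81179334-81179729, with 31804 and 27757 counts (7520 per 100 bp). The next 3 were again in Pkm, at chr9:59671407-59671632 (7063 per 100 bp), chr9:59668410-59668648 (6922) and chr9:59665061-59665328 (6893). The single peak with the highest CPM, chr9:59678583-59679273 with 45117 and 38325 counts, was listed under Gramd2 but lay inside Pkm.

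The name listed for a peak was not always the gene the peak lay in. Of the 1931 peaks, 1526 (79.0%) overlapped the RefSeq span of the listed gene, against 86.8% of the peaks of genes with both proteins. Another 278 (14.4%, against 2.77%) lay in a different gene that also had no Igf2bp3-RIP peak listed, 119 (6.16%, against 10.0%) lay in a different gene that did have one, and 8 (0.414%) lay in no RefSeq gene. For 217 of the 755 genes, 167 of them protein-coding, no listed peak lay in the gene itself, which left 538 genes with a peak of their own.

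**Figure D3:**
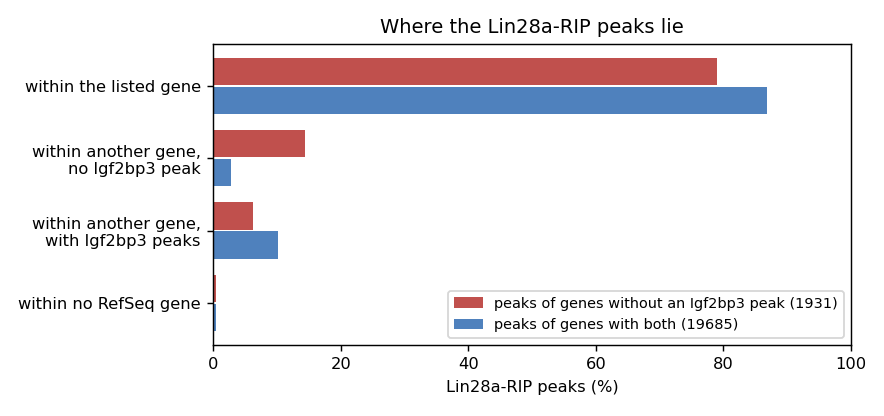
Lin28a-RIP peaks (x axis, percent of peaks) by where they lay in RefSeq, for the 1931 peaks of genes without an Igf2bp3-RIP peak and the 19685 peaks of genes with both. The largest gap was in peaks that lay in a different gene without Igf2bp3-RIP peaks, 14.4% against 2.77%.

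Grouping the peaks by the gene they lay in joined several entries. Pkm then held 8 peaks (4265 and 4006 CPM), 2 of them listed under its neighbour Gramd2. Eef2 held 5 (3755 and 3586 CPM), 1 of them listed under the snoRNA gene Snord37. Myh3 held 13 (1274 and 1242 CPM), 8 of them listed under Mir6923. Psap, which encodes the precursor of the saposins, held 6 (908 and 904 CPM), of which 5 were listed under Cdh23, a cadherin gene. Lama5 held 27, of which 22 were listed under Mir7005, and Myh1, an adult fast myosin gene, held 17, of which 8 were listed under the noncoding RNA gene Myhas. Thus all 22 peaks listed under Mir7005, the highest number of any entry, overlapped Lama5, and all 8 under Mir6923 overlapped Myh3, while 1 peak of each entry touched the microRNA gene. Over all 38 microRNA genes, 14 of 97 peaks touched the microRNA gene itself.

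By name, the entries with the most peaks after Mir7005 were Polr3a, the largest subunit of RNA polymerase III, with 20 peaks of which 13 were in the gene, and Lrba, a vesicle trafficking gene, with 19. Itga3, an integrin chain that binds laminin, had 17, Nrcam, a neuronal cell adhesion gene, had 16 and Gart, an enzyme of purine synthesis, had 14, all of them within the gene. Counts per 100 bp of peak were 83.2 for Polr3a, 102 for Lrba, 379 for Itga3, 148 for Nrcam and 295 for Gart, far below Pkm and Eef2.

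By position, Igf2bp3-RIP peaks were nearly absent from these peaks. A base was shared with an Igf2bp3-RIP peak of some other gene by 8 of the 1931 (0.414%), against 57.5% of the Lin28a-RIP peaks of genes with both. The 8 included the peak listed under Mir7090, the peak of Calr and those listed under Lax1, Shld3, Ebpl, Soga1, Camsap3 and Cplx4. The rule fixed that no Igf2bp3-RIP peak carries the same gene name, so the gap is a description. Still, 72 of the 755 genes had within their span an Igf2bp3-RIP peak listed under another name, among them Itga3 and Lrba with 2 each and Igfbp5 with 1.

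Along the gene, the 1164 peaks that lay in their own gene and had a known strand were somewhat gathered at the 3′ end. The last 10% of the gene's length held 21.8% of them and the first 10% held 4.90%, against 19.7% and 3.64% of the 13748 such peaks in genes with both.

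Fewer of these genes were in the m6A-RIP table. At least 1 m6A-RIP row was present for 529 of 755 genes (70.1%, 95% Wilson interval 66.7 to 73.2%), against 2238 of 2738 genes with both (81.7%, 80.2 to 83.1%). In classes of 1, 2 to 4, 5 to 9 and at least 10 Lin28a-RIP peaks, the shares were 68.8, 71.4, 72.1 and 71.0% against 77.8, 79.8, 85.7 and 83.8%. No test was made within a class, and the last held only 31 of these genes. Among the 538 genes with a peak of their own, 381 (70.8%) were in the table. A gene had a median of 2 and at most 9 rows, 1062 in all. Eef2, Gart, Lama5 and Myh3 were among the 226 genes with no row under their name. The m6A-RIP rows carry no positions, and Snord37, inside Eef2, had 1 row, with 824 and 843 CPM in the Control and 778 and 776 CPM in the Lin28a+ m6A-RIP libraries, while Mir6923, inside Myh3, had 5 rows, so absence by name does not show absence of m6A-RIP reads in the transcript.

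The input RNA of these genes was more often higher than lower in Lin28a+ MuSCs. Lin28a-RIP was made from Lin28a+ MuSCs alone, and Igf2bp3-RIP from both groups. Whether a gene met the rule may therefore depend on its RNA in either group, and how far this shapes the shares was not tested. The Lin28a+ columns of the deposited input table are headed with the name of the m6A-RIP samples, and were read as Lin28a+ input because the sample descriptions assign that table to the input samples, so the RNA changes rest on this reading. Most input values are not whole and may be estimated counts or means over the transcripts of a gene, so their level between genes, and any ratio to Lin28a-RIP reads, depends on which they are. Of the 755 genes, 628 were matched to the input table and 589 passed the filter on low counts. With edgeR's quasi-likelihood test (Benjamini-Hochberg adjusted p under 0.05), 240 of the 589 rose (40.7%) against 28.1% of all 11317 genes tested, and 104 fell (17.7%) against 28.7%. The median log2 fold change was 0.17 (quartiles -0.19 and 0.45), against 0.01 over all genes tested. In the 2313 tested genes with peaks of both proteins, 15.4% rose and 48.8% fell, with a median of -0.28. Called or not, 34 of the 589 genes were above 2-fold up and 25 above 2-fold down, beside 527 and 1011 of all 11317. In the 2313 genes with peaks of both proteins these were 33 and 211. With DESeq2 in place of edgeR, 120 of these genes rose and 42 fell (19.97% and 6.99%), against 12.7% and 12.5% of all genes. The 505 genes with a peak of their own that edgeR tested gave 210 higher (41.6%) and 89 lower (17.6%).

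**Figure D4:**
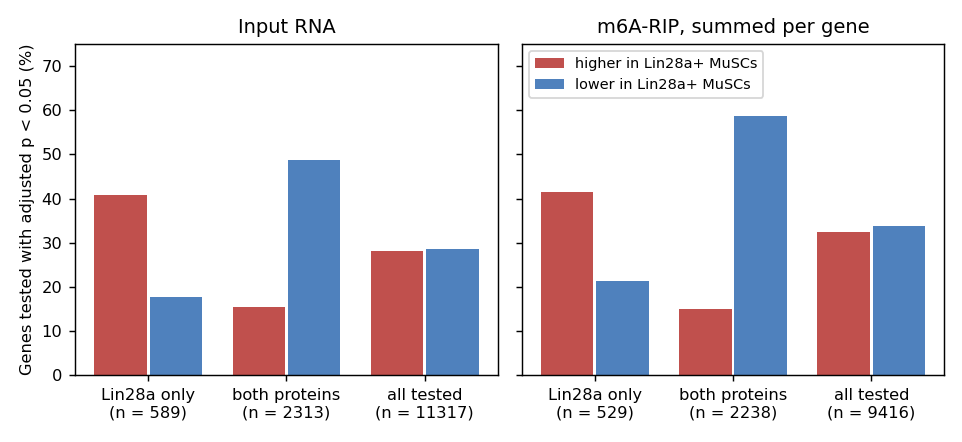
Share of tested genes (y axis, percent) called higher (red) or lower (blue) in Lin28a+ than in Control MuSCs, in the input RNA (left) and in m6A-RIP counts summed per gene (right), for genes with Lin28a peaks alone, genes with peaks of both proteins and all genes tested. Higher calls outnumber lower ones in the first group (240 and 104 in RNA) and lower ones outnumber higher ones in the second.

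Among the genes that rose, Igfbp5, which encodes a secreted binding protein of insulin-like growth factors, was at 746 and 759 CPM in the Control libraries and reached 1804 and 1793 CPM in the Lin28a+ libraries. Its log2 fold change was 1.26 ± 0.022 (SE, n = 2 per group; edgeR's quasi-likelihood test, Benjamini-Hochberg adjusted p = 3.92e-06), with no overlap between the groups. Lama5 went from 41.2 and 40.7 CPM to 108.7 and 108.4 CPM (log2 fold change 1.41), and Tubb2b, a beta-tubulin gene, from 1279 and 1238 CPM to 2292 and 2263 CPM (0.86). Phgdh, the first enzyme of serine synthesis, rose by 0.95, Cct7, a subunit of the cytosolic chaperonin, by 0.80 and Tpi1, the triose phosphate isomerase of glycolysis, by 0.79. Mcm2, a subunit of the replicative helicase, rose by 1.23 and Lmnb2, a nuclear lamin gene, by 1.26. The single peak listed under Tpi1 lay in its neighbour Usp5, so Tpi1 is among the genes with no peak of their own.

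Among the genes that fell, Neb, the giant thin-filament protein nebulin, measured 95.5 and 98.8 CPM in the Control libraries against 15.9 and 17.0 CPM in the Lin28a+ libraries, a log2 fold change of -2.56 ± 0.055 (SE, n = 2 per group; edgeR's quasi-likelihood test, Benjamini-Hochberg adjusted p = 5.28e-06). Tmod1, which caps thin filaments, fell from 68.0 and 72.2 CPM to 31.4 and 32.5 CPM (log2 fold change -1.14), and Adssl1, the muscle form of adenylosuccinate synthase, from 60.7 and 58.7 CPM to 26.7 and 26.2 CPM (-1.17). Neither had a peak of its own: the peak listed under Tmod1 lay in Tdrd7, which had Igf2bp3-RIP peaks, and that listed under Adssl1 lay in Inf2. Stk17b, a serine/threonine kinase gene linked to apoptosis, changed by -1.71, Rnf128, a ubiquitin ligase gene, by -1.86, Fras1, a gene of the extracellular matrix, by -2.41, Prkaa1, a catalytic subunit of AMP-activated kinase, by -0.85 and Uso1, a tether of Golgi vesicles, by -0.82 on the log2 scale. In all 240 genes that rose and all 104 that fell, the libraries of the groups did not overlap. A call from 2 libraries per group leaves little room for overlap, so this adds no support. The share over all called genes was not computed.

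By function, 99 of the 755 genes were in one of 14 lists. Over all genes with a Lin28a-RIP peak, those without an Igf2bp3-RIP peak made up 21.6%. Their share was 8 of 18 Lin28a-bound genes (44.4%) for the TCA cycle and pyruvate metabolism and 12 of 34 (35.3%) for skeletal muscle. It was 7 of 86 (8.14%) for chromatin modification, 4 of 44 (9.09%) for small GTPases and their regulators and 8 of 75 (10.7%) for the spliceosome and RNA processing. No set test was made on these shares, and the counts over all tested genes of each list are given beside those of the genes without Igf2bp3-RIP peaks. Of the list genes named next, Rfc4, Ndufab1, Col19a1, Rap1gap and Rps27l had no Lin28a-RIP peak of their own, since the peak listed under each lay in a neighbour.

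In the DNA replication list, 7 of the 8 genes without Igf2bp3-RIP peaks rose and none fell, with a median log2 fold change of 1.13, beside 44 higher and 2 lower of all 63 genes of the list that were tested. They included the helicase subunits Mcm5 (1.27) and Mcm7 (1.09), Fen1 (0.90), the flap nuclease, and Rfc4 (1.57), a clamp loader subunit, and Orc1, of the origin recognition complex, did not pass (0.61 ± 0.24, SE). In the cell cycle list, 9 of 11 rose and 1 fell, beside 98 higher and 28 lower of all 169. Among them were the mitotic kinesins Kif20a (0.74) and Kif22 (1.49), which rose, and Haus3, an augmin subunit, which fell (-0.78). In the DNA repair list, 9 of 17 tested genes rose and 1 fell, beside 50 and 25 of all 165. Parp1, a sensor of strand breaks, rose by 0.29 and Prkdc, the catalytic subunit of DNA-dependent protein kinase, fell by 0.66 on the log2 scale. The counts of Lin28a-RIP reads were unequal in these lists, from 344 CPM (mean of both libraries) for Kif20a and 168 for Parp1 to 3.43 for Rad54l, a helicase gene of homologous recombination.

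In metabolism, Sdha rose by 0.21 and Pck2, which makes phosphoenolpyruvate in mitochondria, by 1.38, while Idh1, the cytosolic isocitrate dehydrogenase, changed by -0.72. In all, 4 of the 8 TCA cycle and pyruvate genes rose and 1 fell, beside 20 and 8 of all 42. Both genes of the oxidative phosphorylation list rose, among them Ndufab1 (0.43), of complex I, beside 68 higher and 15 lower of all 91. In the extracellular matrix list, 7 of 10 rose, including Lama5, Lamb2 (0.42), the fibrillar collagen Col11a1 (2.10) and the fibrillin Fbn2 (1.06), and Col19a1 (-2.72) and Col6a1 (-0.88) fell, whereas over all 69 tested genes of that list 17 rose and 36 fell. In the skeletal muscle list, 5 of 10 tested genes rose and 4 fell, whereas over all 110 tested genes of that list 25 rose and 67 fell. The myosin heavy chains Myh8 (1.03) and Myh1 (0.60) rose, whereas Myh3 (-0.57), Neb and the calcium release channel Ryr1 (-0.85) fell. The myosin heavy chain genes are close copies of each other in a cluster, and how their reads were divided is not given in the sources used here.

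In the remaining lists the numbers were small. Of 8 spliceosome and RNA processing genes, 5 rose and none fell (62 and 21 of all 129), with Cpsf1 (0.79) and Cpsf3 (0.38), of the polyadenylation cleavage factor, and Snrnp70 (0.27), of the U1 particle, among them. Of 8 secretory pathway genes, 3 rose, including the coatomer gene Copg1 (0.20), and Uso1 fell (40 and 39 of all 131), whereas Hyou1 (0.13 ± 0.039, SE) and Calr (0.04 ± 0.024, SE), both chaperones of the endoplasmic reticulum, did not pass. Of 7 chromatin genes, 3 rose and none fell (36 and 41 of all 150), and Hcfc2 (0.35), a host cell factor gene, was among those that rose. Of 4 small GTPase regulators, 2 rose, including Arhgef1 (0.45), and Rap1gap (-2.18) fell (26 and 74 of all 169). Of the let-7 list, which held 2 of the genes, Cdc25a (0.44), a cell cycle phosphatase, rose and Fras1 fell (6 and 18 of all 34). The lists of ribosomal proteins and of oxidative stress held 1 gene each, Rps27l (0.41) and Txnrd3 (0.32), and both rose. Over all 81 ribosomal protein genes 74 rose and 2 fell, and over all 60 oxidative stress genes 18 rose and 27 fell.

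A further 4 lists were chosen after the values were seen. All 3 chaperonin subunits, Cct7, Cct4 (0.39) and Cct5 (0.52), rose, as did all 7 tested subunits. The 3 glycolytic genes Pkm (0.29), Eno1 (0.83) and Tpi1 rose, beside 10 higher and 2 lower of all 16. Of 9 aminoacyl-tRNA synthetase genes, 4 rose, among them Gars (0.49) and Yars (0.47), beside 16 higher and 2 lower of all 38. Of 6 genes of purine and pyrimidine synthesis, Atic (0.40), Gart (0.45) and Ctps (0.33) rose and Adssl1 fell, beside 13 higher and 3 lower of all 22. Eef2, with the most Lin28a-RIP reads, measured 6810 and 6929 CPM in the Control input against 6848 and 6864 CPM in the Lin28a+ input, and did not pass the test (log2 fold change -0.0028 ± 0.020, SE).

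The input libraries held 4842915 to 6220960 counts, and the m6A-RIP libraries 21350962 to 31830638. The summed input level of 11 myogenic markers, of which 10 were measured, lay between 14815 and 15745 CPM, against 0.965 to 1.84 CPM for endothelial markers (5 of 10 measured) and 3.54 to 5.72 CPM for macrophage and blood markers (6 of 10). Fibro-adipogenic markers (6 of 10) lay between 126.6 and 132.5 CPM in all libraries. Pericyte and smooth muscle markers (8 of 10) summed to 5842 and 5879 CPM in the Control input against 7699 and 7716 CPM in the Lin28a+ input, with 3 higher and 2 lower of the 5 that were tested. Notch3, a Notch receptor gene with 13 Lin28a-RIP peaks and no Igf2bp3-RIP peak, was among the 3 (log2 fold change 0.41). Of the 10 myogenic markers tested, 3 were higher and 5 lower. The part of these marker differences in the changes above was not tested. In bulk samples, fewer cells of a type and less RNA per cell cannot be told apart.

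The m6A-RIP counts, summed per gene, were also more often higher than lower. As with the RNA, how far the rule itself shapes these shares was not tested. Of the 529 genes, 219 (41.4%) were higher in Lin28a+ MuSCs, against 32.5% of all 9416 genes tested, and 113 (21.4%) were lower, against 33.8%, with edgeR's quasi-likelihood test. The median log2 fold change was 0.13, against 0.01 over all genes and -0.32 in the genes with both proteins, of which 15.1% rose and 58.7% fell. With scaling by total counts in place of TMM, 177 of the 529 genes were higher and 147 lower, against 25.4% and 40.0% of all genes, and the median of all genes moved to -0.09. A RIP count rises with the amount of RNA as well as with its m6A, so the next comparison sets both side by side.

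Of the 445 genes tested in both assays, 147 rose in both, 55 fell in both, 10 were called in opposite directions and 115 passed in neither. Spearman's rho between the log2 fold changes was 0.76 across these genes (0.80 across 1960 genes with both proteins), given as a description, since genes are not independent replicates. Pck2 measured 106.5 and 108.3 CPM in the Control m6A-RIP against 251 and 254 CPM in the Lin28a+ m6A-RIP (log2 fold change 1.24, against 1.38 in RNA). Igfbp5 (1.22) and Tubb2b (0.81) also rose in m6A-RIP. Nrcam fell in both, from 48.8 and 45.0 CPM to 4.52 and 4.27 CPM in m6A-RIP (-3.42) and from 9.55 and 11.9 CPM to 0.786 and 1.02 CPM in RNA (-3.55). Inhbb, a subunit of activin B, changed by -0.98 and Haus3 by -1.66 in m6A-RIP.

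**Figure D5:**
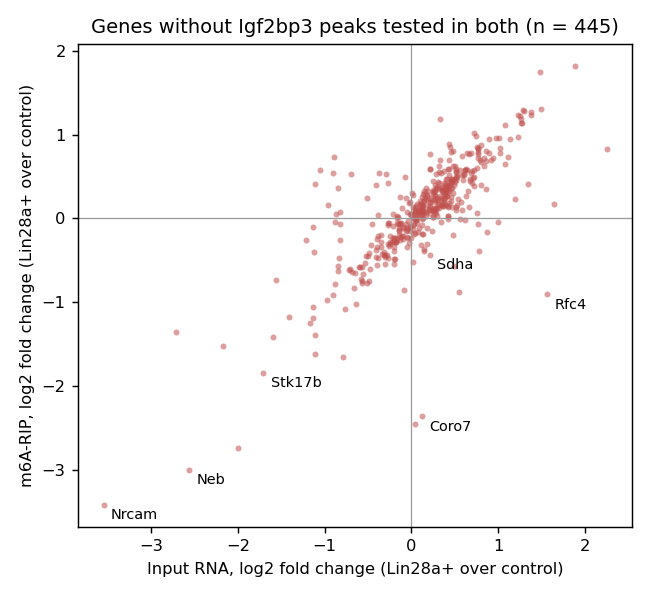
Log2 fold change (Lin28a+ over Control) of m6A-RIP counts summed per gene (y axis) against that of input RNA (x axis) for the 445 genes without Igf2bp3-RIP peaks tested in both; each point is a gene. Most points follow the diagonal (rho 0.76), and Coro7 and Mre11a lie below it, near 0 in RNA and at -2.36 and -2.46 in m6A-RIP.

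Under a few gene names, the m6A-RIP counts departed from the input RNA. Coro7, a coronin gene of the Golgi, measured 205.0 and 201.6 CPM in the Control m6A-RIP against 39.7 and 39.4 CPM in the Lin28a+ m6A-RIP, a log2 fold change of -2.36 ± 0.044 (SE, n = 2 per group; edgeR's quasi-likelihood test, Benjamini-Hochberg adjusted p = 7.98e-13), while its RNA changed by 0.12 and did not pass. Mre11a, a nuclease gene of double-strand break repair, likewise changed by -2.46 in m6A-RIP, from 2.43 and 2.13 CPM to 0.348 and 0.467 CPM, and by 0.04 in RNA. It was named after its values were seen. The 10 genes called in opposite directions were Aldh7a1, Gmppa, Gtf2h4, Pmvk, Rfc4 and Sdha, higher in RNA and lower in m6A-RIP, and Atp6ap2, Cox8b, Emc1 and Mphosph8, lower in RNA and higher in m6A-RIP. Of these, Gmppa, Gtf2h4, Pmvk, Rfc4 and Cox8b had no Lin28a-RIP peak of their own. The m6A-RIP rows carry no positions, so rows under any of these names may hold reads of a neighbouring or nested gene. The difference between the assays was not tested in any of these genes.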

How the data were processed

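For Lin28a-RIP and Igf2bp3-RIP, each deposited row is a peak with its position, its nearest gene and whole read counts per library, and each m6A-RIP row has a gene name, counts and no position. The deposited input values, counts per gene per the file headers, are not all whole and were treated as estimated counts. They were rounded here, but may be means over transcripts, in which case the count model holds only in approximation. Its Lin28a+ columns carry names of m6A-RIP samples, and were assigned to the input by the sample descriptions. Both Lin28a+ columns of the m6A-RIP table carry one name. The submitters' notes and the study's methods name FastQC, HISAT2 2.0.4, MACS2 1.4.3 and DESeq2 1.42.0, with GRCh38 and mm10 as builds, and the peak coordinates were read as mm10. Peaks called in each library or over pooled libraries were not told apart in the sources used here.

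Peaks were placed by an overlap of at least 1 base with RefSeq gene spans (GRCm38.p6, the assembly of mm10). CPM for Lin28a-RIP is relative to all counts of the table, and for input and m6A-RIP to the TMM-scaled total. Input counts and m6A-RIP counts summed per gene were each fitted on the whole table with edgeR 4.0.16 in R 4.3.3 (glmQLFit, glmQLFTest, TMM, filterByExpr), Control against Lin28a+, with a Benjamini-Hochberg adjusted p under 0.05 as the threshold. The scripts were tested on simulated data. Standard errors are the log2 fold change over the square root of the F statistic, and edgeR keeps p at or above that of a Poisson model, so a p can be larger than its standard error implies.

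Genes named were, among those of the rule, the 10 with the most Lin28a-RIP reads, the 6 with the most peaks, the 5 single peaks with the highest CPM and the 5 with the highest density, the 8 rising and 8 falling with the smallest p in RNA and 4 and 4 in m6A-RIP, and the first 4 of each function list by Lin28a-RIP reads. Others were named after their values were seen, and some genes of the rule are not reported here. The genes and lists were chosen with earlier results of these data known. Replicates differed by more than sampling noise (chi-square per degree of freedom 1.80 to 6.15 in input, m6A-RIP and Lin28a-RIP), so none was counted as a copy. Lin28a itself is not analysed here.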

Additional observations from a re-analysis of the deposited data

How the results depend on the processing

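The alternatives were DESeq2, total counts or median-ratio size factors in place of TMM, no filter or at least 10 counts in every library, each library left out, and other rules for a gene without Igf2bp3-RIP peaks. Keeping genes with a Lin28a-RIP peak of their own, and leaving out genes with an Igf2bp3-RIP peak by position, were chosen after seeing the data. The 24 changes of single genes named by rule in RNA or m6A-RIP kept their direction in 216 of 216 comparisons. These genes were picked for the smallest p in the same libraries. Refits of those libraries could hardly have reversed them, so no conclusion on robustness is drawn from this count. Apart from the single genes, 65 of 73 counts and shares stayed near the reported value. With DESeq2, 120 genes were higher in RNA in place of 240, and 42 were lower in place of 104. Among genes with a peak of their own, 75 were lower in m6A-RIP in place of 113, from fewer genes tested. When Igf2bp3-RIP peaks counted only with at least 100 counts in every library, 2902 peaks qualified in place of 1931, they held 5.90% of the counts in place of 4.91%, and 47.63% of the genes had a single peak. Without genes whose peak overlaps an Igf2bp3-RIP peak of another gene, the share of counts was 4.795%. At an overlap of 50% of both peaks, 1 peak lay on an Igf2bp3-RIP peak in place of 8. Leaving out a library gave a median log2 fold change of 0.16 to 0.18 in RNA, against -0.00083 to 0.015 over all genes tested. In m6A-RIP the median was 0.13 to 0.15, against -0.0013 to 0.0074 over all genes. In these fits the lone library of a group is assumed to vary like the other group. Leaving out a Lin28a-RIP library gave a share of counts of 4.858 to 4.955%. No paired analysis was possible because the headers do not give the Lin28a+ replicates: the input columns carry numbered names of the m6A-RIP samples, and both m6A-RIP columns carry the same name. A search for GGAG in the peaks themselves was not run, since no genome sequence was used here. Of the matched genes, 39 had too few input counts to be tested.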

Other observations

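The ratio of a gene's Lin28a-RIP CPM, summed over its peaks, to its Lin28a+ input CPM had a median of 0.836 (quartiles 0.359 and 2.08), against 4.50 in genes with peaks of both proteins, and was above 1 in 44.1% against 79.0% of genes. The input values may be means over transcripts, which would raise the ratio of genes with several. The ratio has no control immunoprecipitation behind it and rises with the number of peaks called, so it is a description with no test. It was highest for Nrcam, with 211 and 222 CPM in Lin28a-RIP against 0.786 and 1.02 CPM in the input (ratio 239), a gene whose RNA fell by 3.55 on the log2 scale. Among genes with a peak of their own, Lrba (21.4), Hltf, a helicase-like factor of replication fork repair (19.9), Hyou1 (18.5), Col11a1 (16.6) and Fbn2 (13.4) followed. Of the 25 genes with a ratio above 10, only 16 had a peak of their own, and the ratios of Col19a1 (161.7) and Rap1gap (21.9), above that of Lrba, compare a peak in a neighbouring gene with the RNA of the listed one. The ratio was 0.438 for Eef2, 0.331 for Igfbp5 and 0.0206 for Tubb2b.

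Several of the microRNA entries bore the names of clusters that are known from stem cells and the cell cycle, but their peaks lay outside them. Mir106b held 67.4 and 69.8 CPM in 2 peaks, Mir15b 64.5 and 68.7 CPM in 2 peaks and Mir302b 25.6 and 24.5 CPM in 2 peaks, and none of these peaks touched the named microRNA gene. Such entries give the nearest gene, not a bound microRNA.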
